A study of Mus musculus with 4 samples.

Results

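The CHD (chromodomain helicase DNA-binding) chromatin remodellers *Chd1* to *Chd9* were the 9 rows with these gene symbols among the 24411 rows of the deposited expression tables. All 9 were present and all 9 passed the filter on low values, for which the 4 samples had to average 1 TPM or more. RNA was measured in GFP-positive cells sorted from testes at postnatal day 18 of mice with a mixed C57BL/6 and CBA strain label. The mice carried the *Rec8-3FH-GFP* KI allele, which makes GFP together with REC8, a cohesin subunit of meiotic cells, so that the sort enriches spermatocytes in meiotic prophase. There were 2 control samples, *Zfp541*+/- 1 and 2, and 2 samples labelled *Zfp541* KO, 1 and 2, each from an individual testis. The last 2 are called the KO-labelled libraries. Both of them were homozygous for the KI allele, while 1 control was heterozygous and 1 homozygous for it. The labels do not say which control was which, so KI dose and the difference between the controls cannot be told apart. Nothing states that the testes of a group came from separate animals, so a p-value here measures the spread between these samples.

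CHD proteins use the energy of ATP to slide, evict or space nucleosomes, and each carries tandem chromodomains beside a motor of the SNF2 type. CHD1 and CHD2 form subfamily I, which works at transcribed genes. CHD3, CHD4 and CHD5 form subfamily II and are alternative motors of NuRD, a complex that joins remodelling to the histone deacetylases HDAC1 and HDAC2. CHD6, CHD7, CHD8 and CHD9 form subfamily III, whose members act at enhancers and promoters. ZFP541 itself is a zinc-finger protein of spermatocytes that associates with HDAC1 and HDAC2, and the comparison asked how the RNA of the CHD genes stood in its absence.

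The motor is what the 9 genes have in common, and the stretch that codes its DEAH box, which takes part in ATP hydrolysis, is shown for each to let the subfamilies be compared. The 36 bases were taken from the coding strand of GENCODE M21 transcripts on GRCm38, 5′ to 3′, with the 12 bases that code the DEAH box in capitals. Each stretch lay within a single coding exon.
Chd1: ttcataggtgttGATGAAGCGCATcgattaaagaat
Chd2: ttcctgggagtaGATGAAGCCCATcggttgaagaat
Chd3: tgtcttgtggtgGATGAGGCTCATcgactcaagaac
Chd4: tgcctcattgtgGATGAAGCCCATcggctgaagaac
Chd5: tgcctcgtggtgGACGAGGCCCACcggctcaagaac
Chd6: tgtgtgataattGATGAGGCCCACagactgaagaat
Chd7: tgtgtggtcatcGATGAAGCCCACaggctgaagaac
Chd8: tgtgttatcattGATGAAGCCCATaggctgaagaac
Chd9: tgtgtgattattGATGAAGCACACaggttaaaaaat
The stretches lay at chr17:15738509-15738544 (*Chd1*, exon 14, plus strand), chr7:73490607-73490642 (*Chd2*, exon 16, minus strand), chr11:69356950-69356985 (*Chd3*, exon 16, minus strand), chr6:125108749-125108784 (*Chd4*, exon 17, plus strand), chr4:152370595-152370630 (*Chd5*, exon 16, plus strand), chr2:161018068-161018103 (*Chd6*, exon 13, minus strand), chr4:8828331-8828366 (*Chd7*, exon 13, plus strand), chr14:52219639-52219674 (*Chd8*, exon 14, minus strand) and chr8:90994559-90994594 (*Chd9*, exon 14, plus strand). Between members, 21 to 32 of the 36 bases were identical. *Chd7* and *Chd8* shared 32, *Chd1* and *Chd2* shared 29, and *Chd5* shared 30 with *Chd3* and 30 with *Chd4*. Pairs across subfamilies could be as alike, with 29 shared by *Chd4* and *Chd8* and 28 by *Chd2* and *Chd4*, the number that *Chd3* and *Chd4* shared. Despite this likeness, no run of 75 bases, the read length, was found in the transcripts of more than 1 member, so that a read matching a member exactly matched no other member. Some exons were shared with neighbours in the annotation. In *Chd2*, 18.4% of the exon bases were also those of *1810026B05Rik* on the same strand, which was itself at 14.2 and 9.70 TPM in the controls and at 14.7 and 20.1 TPM in the KO-labelled libraries. In *Chd8*, 5.77% of the exon bases lay opposite the antisense gene *Gm26590*. The strand setting of the quantification was not given in the sources used here. The overlaps are those of GENCODE M21, while the paper took its gene models from UCSC mm10, in which the overlaps were not checked. *Chd2* and *Chd8* values are therefore uncertain, and these shares of annotated bases do not measure by how much.

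TPM, a transcript abundance that sums to the same total in each library, corrects for transcript length, so levels can be compared between the members. In all 4 libraries *Chd4* was the most abundant, followed by *Chd3* and *Chd8*, and the 3 lowest were *Chd9*, *Chd5* and *Chd7* in that order. Among the 14512 genes tested, 91.8% had a lower mean level than *Chd4* and 8.36% a lower mean level than *Chd7*. *Chd1*, *Chd2* and *Chd6* lay between them and changed places: *Chd6* stood below *Chd1* and *Chd2* in control 1, above both in control 2, and between them in the KO-labelled libraries. *Chd3* and *Chd8* overlapped in the controls, at 44.3 to 68.7 and 36.8 to 49.3 TPM, but not in the KO-labelled libraries, at 106 to 116 and 90.6 to 97.7 TPM.

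**Figure D1:**
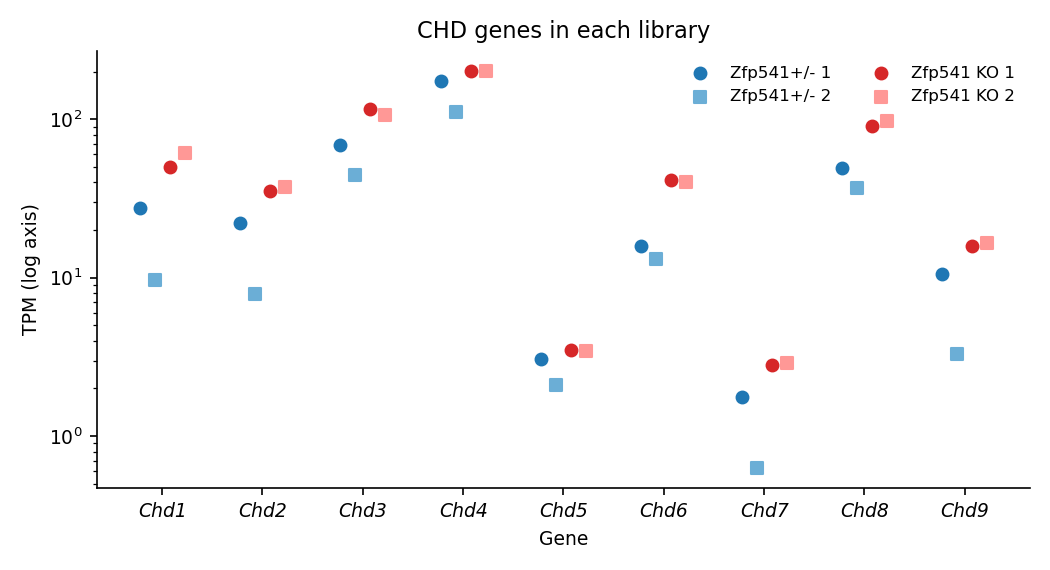
TPM of each CHD gene (log axis) in the 4 libraries, with circles for replicate 1 and squares for replicate 2, controls in blue and KO-labelled libraries in red. Each red point lies above both blue points of its gene, and control 2 is the lowest point for each gene.

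*Zfp541* was checked first. It measured 112 and 72.2 TPM in controls 1 and 2, against 136 and 151 TPM in the KO-labelled libraries, a log2 fold change of 0.67 (SE 0.28, limma adjusted p = 0.371). It was thus not lower where it was labelled deleted. The deletion removes part of the exons and a TPM per gene does not separate exons, so these values do not check the labels, and every direction below refers to the labels as given. The controls also stood apart from each other. Over all genes tested the distance between them on the log2 scale was 153, against 49.2 between the KO-labelled libraries and 111 to 133 between a control and such a library.

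The 9 CHD genes were higher in both KO-labelled libraries than in both controls, although *Chd4* and *Chd5* lost this direction when transcript length was corrected for. A separation of this kind, upward, was found for 38.6% of all genes tested, and downward for 12.1%. No CHD gene passed an FDR of 0.05 in limma, and neither did any other gene (0% of those tested), while 1549 genes higher and 542 genes lower had an unadjusted p under 0.05. The paper used a different method at an FDR of 0.05 and did call genes. It named *Chd1*, *Chd2*, *Chd3* and *Chd6* among putative ZFP541 targets that were upregulated in the KO. Of the CHD genes, 4 of 9 (*Chd1*, *Chd3*, *Chd6* and *Chd8*) had an unadjusted p under 0.05, all higher, beside 10.7% of genes tested. This count was 1 of 9 with length correction, and 0 of 9 with length correction and the replicate block together. It was 5 of 9 with the replicate block alone, 5 of 9 with 5 TPM added before taking logs, and 6 of 9 with quantile normalization. The number of genes of all kinds with such a p also differed between these fits. Of the 14512 genes tested there were 2091 in the main fit, 1509 with length correction and 847 with the block as well. With the block alone there were 1107, with 5 TPM added 2081, and with quantile normalization 2019. By mean TPM, 6 of 9 were at least 2-fold higher, beside 9.12% of genes tested. Their median log2 fold change was 1.12, against 0.28 for all genes tested. An exact permutation test of 2 samples against 2 cannot give a p below 0.33.

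Subfamily I is described first. *Chd1*, which binds trimethylated histone H3 lysine 4 and follows elongating RNA polymerase II, measured 27.4 and 9.68 TPM in controls 1 and 2, against 49.7 and 60.8 TPM in the KO-labelled libraries. Both latter values lay above both controls, and the lower of the latter was 1.81 times the higher control. The log2 fold change was 1.68 (SE 0.54, limma adjusted p = 0.321), higher than that of 98.5% of genes tested. *Chd2*, a close relative linked to deposition of the histone variant H3.3, measured 22.1 and 7.92 TPM in controls 1 and 2, against 35.3 and 37.6 TPM in the KO-labelled libraries. The latter lay close together, and the controls again lay far apart. Its log2 fold change was 1.39 (SE 0.53, limma adjusted p = 0.352). *Chd1* stood at 124% and 122% of *Chd2* in the controls and at 141% and 162% in the KO-labelled libraries, so the controls, which differed 2.83-fold in *Chd1* and 2.79-fold in *Chd2*, held nearly the same ratio.

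In subfamily II the differences were smaller. *Chd4*, the principal motor of NuRD in most cells, measured 175 and 111 TPM in controls 1 and 2, against 201 and 203 TPM in the KO-labelled libraries. On the log2 scale the latter lay 0.20 and 0.21 above control 1 but 0.85 and 0.86 above control 2, so most of the difference between the groups came with control 2. The log2 fold change was 0.53 (SE 0.28, limma adjusted p = 0.434), and it was -0.05 after length correction. *Chd3*, the alternative NuRD motor, measured 68.7 and 44.3 TPM in controls 1 and 2, against 116 and 106 TPM in the KO-labelled libraries. Both latter values exceeded the higher control by at least 1.55-fold. The log2 fold change was 1.00 (SE 0.28, limma adjusted p = 0.315). *Chd5*, a testis and brain gene needed for chromatin compaction in spermatids, measured 3.07 and 2.11 TPM in controls 1 and 2, against 3.52 and 3.44 TPM in the KO-labelled libraries. These levels were low and close to each other, with a log2 fold change of 0.33 (SE 0.39, limma adjusted p = 0.711) that lay near the median of all genes and was -0.39 after length correction.

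The ratio of the NuRD motors does not depend on scaling between libraries. *Chd3* was at 39.3% and 39.7% of *Chd4* in the controls, although these differed 1.55-fold in *Chd3* and 1.57-fold in *Chd4*. In the KO-labelled libraries it was at 57.5% and 52.5% of *Chd4*. The groups did not overlap, and the gap between them was wider than that within either group. Relative to *Chd4*, 7 of the 8 other members were higher in both KO-labelled libraries than in both controls. *Chd5* was lower by a narrow margin, at 1.76% and 1.89% against 1.75% and 1.70%. The same share over all genes was not computed. *Chd4* had a smaller log2 fold change than every member but *Chd5*, so a high count follows in part from this denominator. A ratio to *Chd4*, which had the shortest transcript of the members, also keeps any relation to transcript length. These ratios are a description of 2 samples a group, with no test.

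In subfamily III, *Chd6* and *Chd8* had the differences that were largest beside their error among the 9 members. *Chd9* and *Chd7* stood below *Chd3* and *Chd1* on this measure. *Chd6*, whose product has been linked to the response to oxidative stress, measured 15.96 and 13.2 TPM in controls 1 and 2, against 41.4 and 40.2 TPM in the KO-labelled libraries. Replicates lay close together in both groups, and the lower of the latter was 2.52 times the higher control. The log2 fold change was 1.43 (SE 0.25, limma adjusted p = 0.310). It had the smallest p among the members. *Chd8*, which binds the insulator protein CTCF and is known from autism genetics, measured 49.3 and 36.8 TPM in controls 1 and 2, against 90.6 and 97.7 TPM in the KO-labelled libraries. The groups were separated by 1.84-fold at their nearest values. Its log2 fold change was 1.12 (SE 0.23, limma adjusted p = 0.310). *Chd9* measured 10.5 and 3.29 TPM in controls 1 and 2, against 15.9 and 16.7 TPM in the KO-labelled libraries. Control 1 stood nearer to the latter than to control 2 in fold, and the log2 fold change was 1.299 (SE 0.58, limma adjusted p = 0.389). *Chd7*, the gene of CHARGE syndrome, measured 1.76 and 0.63 TPM in controls 1 and 2, against 2.81 and 2.91 TPM in the KO-labelled libraries. It was the lowest of the 9, and its log2 fold change of 0.86 (SE 0.45, limma adjusted p = 0.437) understates the ratio of mean TPM, 2.39, because 1 TPM was added before taking logs.

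Summed over the 9 genes, CHD RNA measured 374 and 229 TPM in controls 1 and 2, against 556 and 569 TPM in the KO-labelled libraries. The latter averaged 1.51-fold above control 1 and 2.45-fold above control 2. Subfamily I was 2.74-fold, subfamily III 2.34-fold and subfamily II 1.57-fold higher by mean TPM. The order of the first 2 rested on control 2: over control 1 subfamily III was 1.99-fold and subfamily I 1.85-fold higher, and over control 2 they were 2.86-fold and 5.21-fold higher. The makeup of the sum differed with them: *Chd4* gave 46.8% and 48.6% of it in the controls and 36.2% and 35.7% in the KO-labelled libraries. Subfamily III gave 20.8% and 23.5% in the controls, and 27.1% and 27.7% in the KO-labelled libraries. Subfamily I gave 13.2% and 7.68% in the controls, a wide gap, and 15.3% and 17.3% in the others.

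**Figure D2:**
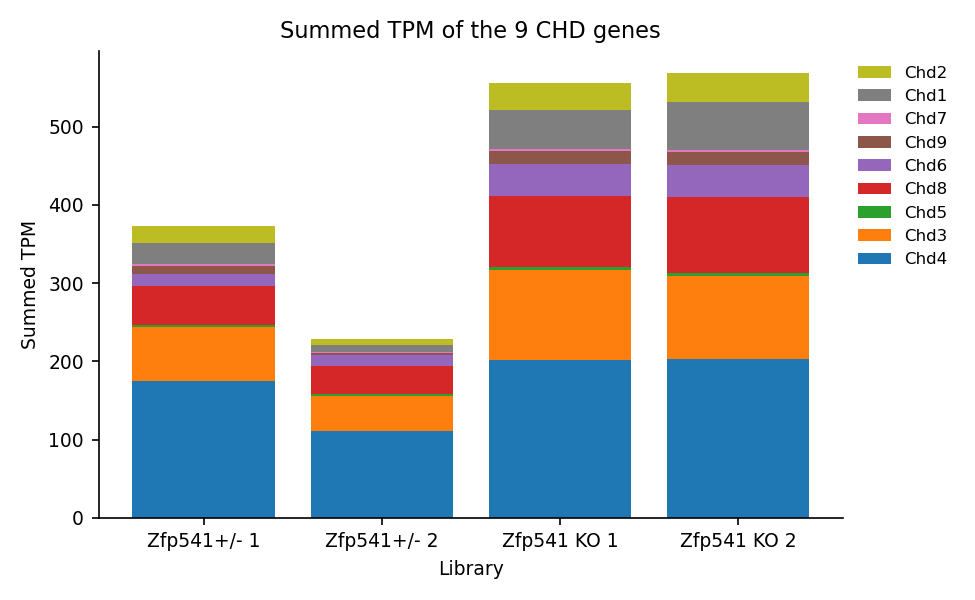
Summed TPM of the 9 CHD genes in each library, stacked by gene with subfamily II at the bottom, subfamily III in the middle and subfamily I at the top. The *Chd4* block gives 35.7% to 48.6% of a bar and is the largest in each library.

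The controls differed in the same direction for each member. All 9 CHD genes were higher in control 1 than in control 2, as were 66.0% of all genes tested, by 1.21-fold for *Chd6* up to 3.19-fold for *Chd9*. In 6 of 9 the difference between the groups was larger than that between the controls on the log2 scale, which was the case for 38.4% of all genes tested. Without control 1, 8 members passed the FDR, with adjusted p from 0.0092 for *Chd1* to 0.023 for *Chd7*, and *Chd5* did not at 0.140, in a fit that called 5610 genes higher and 1375 lower. Without control 2, *Chd1*, *Chd2*, *Chd3*, *Chd6* and *Chd8* passed, with adjusted p from 0.023 to 0.039, and their log2 fold changes were 0.69 or more, in a fit that called 2248 genes higher and 1875 lower. In both fits the lone control was assumed to vary like the KO-labelled libraries, which lay close together.

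**Figure D3:**
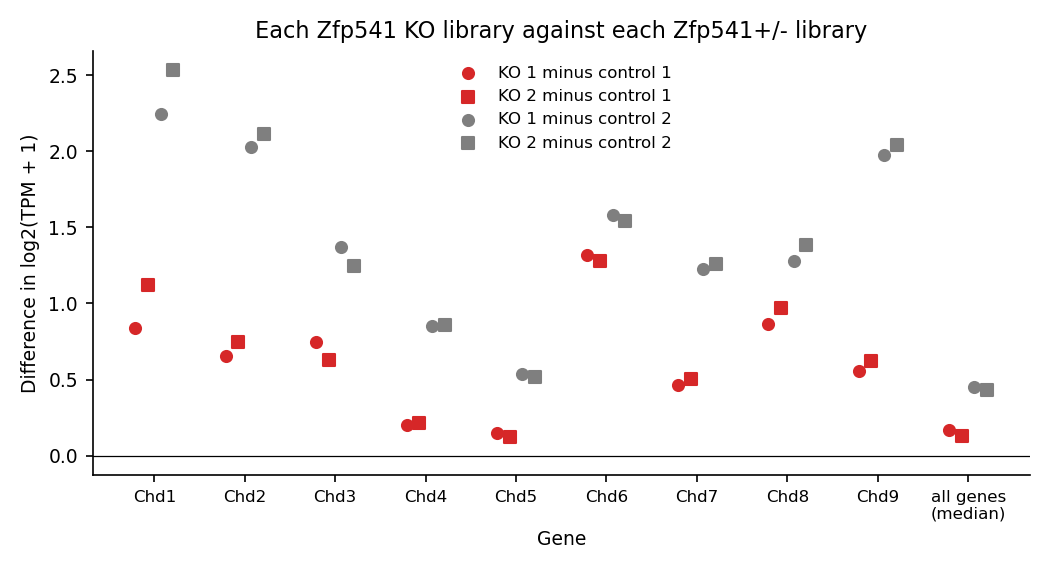
Difference in log2(TPM + 1) between each KO-labelled library and control 1 (red) or control 2 (grey), for each CHD gene and for the median of all genes tested. Each difference for a CHD gene lies above 0, from 0.13 for *Chd5* to 2.53 for *Chd1*, and those for *Chd6* lie together at 1.28 to 1.58 whichever control is used.

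Transcript length moved with the result. The longest coding transcripts of the CHD genes had 6697 bases (*Chd4*) to 12008 bases (*Chd9*), and 90.7% of genes tested had a shorter one than *Chd4*. When the relation of the values to transcript length was removed in each library, the members' median was 0.44 and that of all genes 0.02. *Chd1* was then at 1.03, *Chd2* at 0.68, *Chd6* at 0.67, *Chd9* at 0.49, *Chd8* at 0.44, *Chd3* at 0.38 and *Chd7* at 0.12, and 7 of 9 had groups that did not overlap, beside 23.0% of all genes under the same correction. Median-ratio scaling, which brings the median of all genes from 0.28 to -0.01, gave the members a median of 0.79 with 8 of 9 not overlapping, beside 22.6% of all genes under that scaling.

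**Figure D4:**
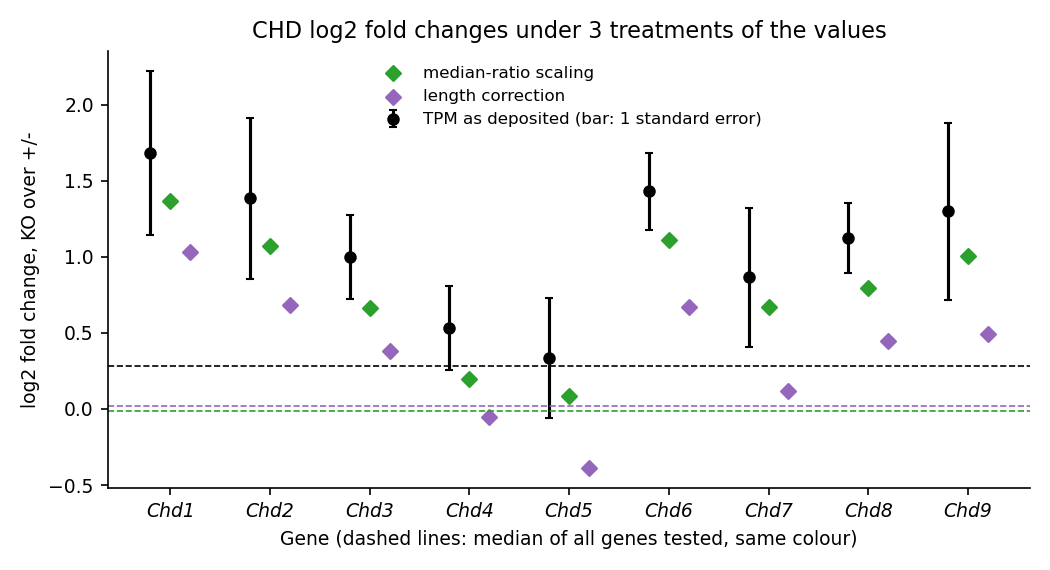
log2 fold change of each CHD gene with TPM as deposited (black, bar of 1 limma standard error), after median-ratio scaling (green) and after length correction (purple), with the median of all genes tested under each as a dashed line. *Chd4* and *Chd5* fall below 0 with the length correction, at -0.05 and -0.39, and *Chd1* is the highest under each.

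Markers of cell types differed between these libraries too. The 10 measured markers of leptotene and zygotene, the first stages of meiotic prophase, summed to 476 and 691 TPM in the controls and to 1112 and 1060 TPM in the KO-labelled libraries, with 9 of 10 higher without overlap (38.6% of all genes tested). The 8 general meiotic prophase markers summed to 3483 and 3691 TPM in the controls and to 5823 and 6210 TPM in the others, so that spermatocyte RNA was abundant in all 4 libraries. *Rec8* itself, whose locus carries GFP, measured 7.05 and 27.9 TPM in controls 1 and 2, against 27.7 and 19.4 TPM in the others, lowest in control 1. The 9 pachytene markers summed to 8766 and 4362 TPM in the controls and to 3475 and 4794 TPM in the others, with 3 lower and 1 higher without overlap and 5 overlapping. Control 1 had the most of this RNA, and control 2 lay between the others. Of these markers *Pgk2*, a glycolytic enzyme of late spermatocytes, was at 79.0 and 18.4 TPM against 1.59 and 2.71 TPM, while the transcription factor gene *Mybl1* was at 70.3 and 38.3 TPM against 81.5 and 98.1 TPM. The macrophage markers summed to 2532 TPM in control 1, 2150 and 1574 TPM in the KO-labelled libraries, and 28.7 TPM in control 2, where *Adgre1* was at 0.70 TPM. The 6 Leydig cell markers summed to 2910 TPM in control 1, 18.0 TPM in control 2 and 331 and 504 TPM in the others, and *Lhcgr* was at 0 in control 2. Sertoli cell markers summed to between 854 and 1192 TPM, spermatogonial markers to between 472 and 1059 TPM, and peritubular myoid markers to between 4.84 and 12.9 TPM. Spermatid markers summed to 93.2 and 62.6 TPM in the controls and to 32.9 and 34.8 TPM in the others, most of it *Actl7b* in the controls, at 74.3 and 47.8 TPM against 2.77 and 4.65 TPM. *Spaca1* stood the other way, at 7.34 and 13.9 TPM against 27.0 and 26.6 TPM, and *Prm1* was at 0 in 3 libraries and at 1.48 TPM in control 1. Control 2, in which all 9 CHD genes were lowest, was also the library with the lowest macrophage and Leydig cell sums. It had the highest spermatogonial sum, 1059 TPM, and the most genes at 0 TPM, 7646 against 6518 to 6731 in the other libraries. The part of cell makeup in the CHD differences was not tested, and in bulk samples fewer cells of a type and less RNA per cell cannot be told apart.

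**Figure D5:**
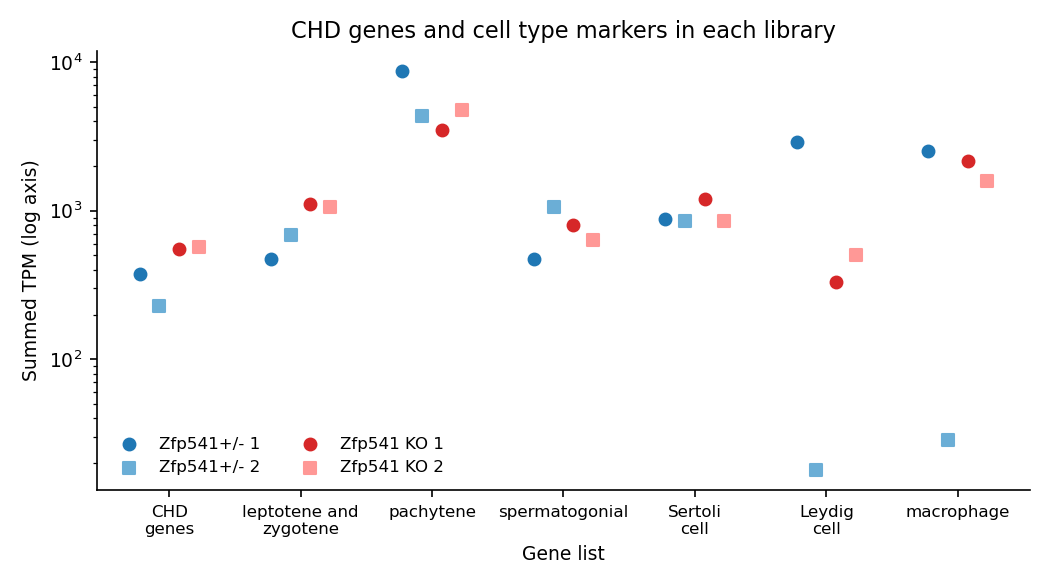
Summed TPM (log axis) of the CHD genes and of 6 lists of cell type markers in each library. Macrophage and Leydig cell markers are at 28.7 and 18.0 TPM in control 2 and at 331 TPM or more in the other libraries, and the leptotene and zygotene markers are higher in both KO-labelled libraries than in both controls.

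The partners of the CHD proteins were looked at by list. None of the partners passed the FDR in limma. Of 12 other NuRD subunits, 6 were higher and 1 lower without overlap (38.6% and 12.1% of all genes tested), 3 had an unadjusted p under 0.05 and a higher level (10.7%), and the median log2 fold change was 0.24, near that of all genes and below 0, at -0.09, after median-ratio scaling. The deacetylase *Hdac2* measured 149 and 161 TPM in controls 1 and 2, against 272 and 265 TPM in the KO-labelled libraries, with a log2 fold change of 0.79 (SE 0.18, limma adjusted p = 0.310). *Hdac1* was at 226 and 218 TPM against 324 and 267 TPM, with a log2 fold change of 0.40. These deacetylases, unlike *Chd3* and *Chd4*, were at nearly equal levels in the controls. *Gatad2b* had the highest log2 fold change of the list, 0.88, and the histone chaperone *Rbbp4* and the subunit *Mbd3* the lowest, -0.15 and -0.31.

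Of 8 elongation factors that work with CHD1, 7 were higher without overlap (38.6% of all genes tested) and 4 had an unadjusted p under 0.05 (10.7%). The median was 0.53, and it was 0.20 after median-ratio scaling and 0.044 after length correction. *Supt16*, a subunit of the histone chaperone FACT, had the highest value, 0.93, and *Ssrp1*, the other FACT subunit, one of the lowest, 0.22. *Cdc73* and *Leo1*, both of the PAF1 complex, were at 0.66 and -0.30. Of 7 partners of CHD4 in the ChAHP complex or of CHD8, 5 were higher without overlap (38.6% of all genes tested) and 4 had an unadjusted p under 0.05 (10.7%). Their median was 0.70, and it was 0.37 after median-ratio scaling and 0.41 after length correction. The heterochromatin protein gene *Cbx1* was at 1.00 and *Adnp* at 0.99, while *Wdr5* and *Ash2l*, of the histone H3 lysine 4 methyltransferases, were at 0.29 and -0.17.

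Among 23 other motors of the SNF2 type, 17 were higher and 0 lower without overlap (38.6% and 12.1% of all genes tested), and 8 had an unadjusted p under 0.05 (10.7%). The median of these motors was 0.60, and it was 0.30 after median-ratio scaling and 0.043 after length correction. *Smarcad1* and *Hells*, a remodeller needed for DNA methylation of repeats, had the highest log2 fold changes, 1.28 and 1.23, and the BAF motor *Smarca2* the lowest, -0.35. *Chd1l*, named for its likeness to *Chd1* but without chromodomains, measured 131 and 93.4 TPM in controls 1 and 2, against 90.8 and 97.7 TPM in the KO-labelled libraries. Its groups overlapped, and the log2 fold change was -0.23 (SE 0.24, limma adjusted p = 0.673).

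Many genes outside the family had a profile close to the mean of the CHD genes. The mean centred log2 profile of the CHD genes over the 4 libraries was -0.13, -0.94, 0.51 and 0.56 in control 1, control 2 and the KO-labelled libraries 1 and 2. The nearest genes by Euclidean distance were *Rnf103* (0.027), *Sp3* (0.051), *A230046K03Rik* (0.055), *Evi5* (0.057) and *Map3k1* (0.060). The nearest member was *Chd3* at 0.19, and 209 genes outside the family lay nearer than it.

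Promoters are shown for *Chd6* and *Chd8*, which had the smallest p-values, and for *Chd4*, whose difference was among the weakest, so that the start sites of members with large and small differences can be compared. Sequences were from RefSeq on GRCm38.p6, which had 8 windows for *Chd4*, *Chd5*, *Chd6*, *Chd8* and *Chd9*. *Chd1*, *Chd2*, *Chd3* and *Chd7* were not matched. Each window runs 5′ to 3′ on the gene's strand, over the 300 bases around the start, most of them upstream, and capitals mark matches to the GC box GGGCGG on either strand.
Chd4: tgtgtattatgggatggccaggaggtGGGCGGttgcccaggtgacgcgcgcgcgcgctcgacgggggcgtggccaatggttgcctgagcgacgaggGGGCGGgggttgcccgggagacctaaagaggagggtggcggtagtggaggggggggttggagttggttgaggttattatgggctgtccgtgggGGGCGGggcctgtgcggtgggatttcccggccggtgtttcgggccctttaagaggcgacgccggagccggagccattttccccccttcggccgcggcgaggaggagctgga
Chd6: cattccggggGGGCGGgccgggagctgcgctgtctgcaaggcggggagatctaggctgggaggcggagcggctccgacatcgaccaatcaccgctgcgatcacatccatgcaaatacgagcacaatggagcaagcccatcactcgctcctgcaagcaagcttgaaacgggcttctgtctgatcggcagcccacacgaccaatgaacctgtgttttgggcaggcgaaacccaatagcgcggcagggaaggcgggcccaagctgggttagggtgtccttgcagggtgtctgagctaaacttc
Chd8: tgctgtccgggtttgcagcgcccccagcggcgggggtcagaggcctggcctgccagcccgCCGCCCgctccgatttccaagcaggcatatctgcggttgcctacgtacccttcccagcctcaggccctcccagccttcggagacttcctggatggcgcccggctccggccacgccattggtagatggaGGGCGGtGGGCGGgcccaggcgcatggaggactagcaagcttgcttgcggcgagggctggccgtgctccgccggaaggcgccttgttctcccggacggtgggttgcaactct
The windows were chr6:125095913-125096212 on the plus strand for *Chd4*, chr2:161109037-161109336 on the minus strand for *Chd6* and chr14:52257711-52258010 on the minus strand for *Chd8*, and the *Chd4* window is the downstream one of 2. These windows held 29, 20 and 26 CpG sites, against a median of 7 over all promoter windows. GC boxes were matched 3 times in *Chd4*, 1 time in *Chd6* and 3 times in *Chd8*, and 35.7% of all promoters held at least 1. The CCAAT box, letters CCAAT on either strand, was matched 1, 3 and 1 times, beside 37.4% of promoters with a match. The E-box CACGTG and the cAMP response element TGACGTCA were matched in none of the 8 windows, and 7.15% and 1.79% of all promoters held them. Such matches describe letters and are not binding sites.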

How the data were processed

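GFP-positive cells were sequenced as single-end 75-base reads, and the authors trimmed them with Trim Galore 0.5.0 (cutadapt 1.16), aligned them to UCSC mm10 with STAR 2.6.0a and deposited TPM per gene from RSEM 1.3.1. TPM keeps no depth, so depth is unknown and no counting interval is given. No column of counts was used.

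The members and lists were chosen with earlier results of these data known. log2(TPM + 1) was fitted with limma 3.58.1 (R 4.3.3, mean-variance trend, two-sided, Benjamini-Hochberg over 14512 genes averaging 1 TPM or more). The fit was tested on simulated data, drawn with the same spread in both groups. In these libraries the controls lay further apart than the KO-labelled ones, so that test does not check the p-values given here. Fold changes are the group labelled *Zfp541* KO minus control and understate low genes. Named were all members, *Zfp541*, *Hdac1*, *Hdac2*, *Chd1l*, the 2 highest and 2 lowest of each partner list, the 5 nearest profiles, and markers whose level is given beside a result. *1810026B05Rik* and *Gm26590* were named for exon overlap. Ratios between members were added after values were seen. Alternatives were pseudocounts 0.1 and 5, no filter or 5 TPM, median-ratio and quantile scaling, no trend, the replicate block, a loess length correction and leaving out each sample. Lengths (95.9% of genes tested) and loci came from GENCODE M21. In 27 rows a date stands in place of a symbol.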

Additional observations from a re-analysis of the deposited data

How the results depend on the processing

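Over 14 alternatives, 120 of 124 log2 fold changes of CHD genes were above 0, but most of these signs could not change. The filters, the fit without trend and the replicate block leave a log2 fold change as it is. Other pseudocounts, or leaving out a sample, cannot turn its sign where the groups do not overlap. Only median-ratio scaling, quantile normalization and length correction could do so. The values below 0 were *Chd4* (-0.053) and *Chd5* (-0.39) under length correction, with and without the replicate block. The length correction, likewise with or without the block, gave medians of 0.44 for the CHD genes (0.42 above that of all genes), 0.088 for NuRD partners, 0.044 for elongation partners, 0.41 for ChAHP and CHD8 partners and 0.043 for other SNF2-type ATPases. In the same order, the partner medians were -0.086, 0.20, 0.37 and 0.30 with median-ratio scaling and 0.040, 0.30, 0.43 and 0.32 with quantile normalization, and the elongation median was 0.49 with a pseudocount of 5. Genes with a log2 fold change above 0 made up 69.0% with TPM as deposited, 49.0% with median-ratio scaling, 55.8% with quantile normalization and 51.4% with length correction. *Chd7* ranged from 0.12 with length correction to 1.34 with a pseudocount of 0.1, and *Chd5* and *Chd7* were not tested at a mean of at least 5 TPM.

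Leaving out each library in turn gave 0 to 5610 genes past the FDR higher and 0 to 1875 lower, with none called when a library labelled *Zfp541* KO was left out. The range of medians was 0.69 to 1.33 for the CHD genes (0.53 to 0.91 above all genes), 0.20 to 0.30 for NuRD partners, 0.48 to 0.56 for elongation partners, 0.56 to 0.84 for ChAHP and CHD8 partners and 0.47 to 0.84 for other SNF2-type ATPases. The 9 CHD genes had groups without overlap in each of these fits, beside 42.9% to 65.8% of all genes. That count was fixed in advance, because groups that do not overlap with all libraries cannot overlap with fewer. Replicate numbers are shared between groups in the labels, and same-numbered samples deviated with a correlation of -0.16. With so few libraries in a group, this only compares the difference between the controls with that between the KO-labelled libraries. It cannot show whether same-numbered samples were paired, and pairing was not tested. With the replicate block 0 genes passed higher and 0 lower, as without it, and *Chd6* and *Chd8* had an adjusted p of 0.629. A crossed block, chosen after seeing the data, called 7 genes higher and 80 lower. Depth is unknown from TPM, which leaves the precision of low genes such as *Chd7* and *Chd5* unknown.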
